A study of Mus musculus with 4 samples.

Results

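Runx factors with their partner Cbfb, and E proteins with their inhibitors Id2 and Id3, were followed in CD4+ T cells at the first hours of regulatory T cell induction. The 9 genes Runx1, Runx2, Runx3, Cbfb, Id2, Id3, Tcf3, Tcf4 and Tcf12 were taken by name, with every probe that carries their name, which gave 26 of the 56605 probes and 9 of the 27195 named genes on the array. Single-colour Agilent arrays of mouse transcripts were used, with 1 array for each of 4 groups of cells. WT naive T cells came from irradiated Rag2-/- mice given WT bone marrow, and Nr4a-TKO naive T cells, in which Nr4a3 is knocked out and the related nuclear receptor genes Nr4a1 and Nr4a2 carry floxed alleles, came from irradiated Rag2-/- mice given WT marrow mixed with Nr4a-TKO marrow. The Cre that acts on the floxed alleles is not given in the sources used here. Naive cells of both genotypes were sorted as Foxp3-, CD44 low, CD62L high and positive for the donor marker Ly5.2, with the help of a Foxp3 reporter allele, and the other two groups, WT and Nr4a-TKO induced Treg (iTreg) cells, were such naive cells after 3 h with plate-bound anti-CD3 at 2 µg/ml, anti-CD28 at 0.5 µg/ml, IL-2 at 10 ng/ml, antibodies to IFN-γ and IL-4, and TGF-β1 at 0.2 or 0.5 ng/ml, which of both is not given for these arrays. The kind of chimera therefore differed together with the genotype, and both cannot be told apart. How many mice went into each array is not given in the sources used here.

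Runx1, Runx2 and Runx3 are transcription factors with a Runt domain that bind DNA as a pair with Cbfb, which does not touch DNA itself but strengthens the binding. In T cells they take part in the choice between the CD4 and CD8 lineages, and together with Cbfb they help to keep Foxp3, the lineage factor of Treg cells, expressed. Tcf3, Tcf4 and Tcf12 encode the E proteins, basic helix-loop-helix factors that bind E boxes as dimers, and Id2 and Id3 are helix-loop-helix proteins without the basic region that pair with E proteins and keep them off DNA. Id3 is known as a target of T cell receptor signals, and Id2 is known for its high level in innate lymphoid and effector cells.

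Values are background-corrected intensities after quantile normalization on the log2 scale, called log2 signal, and a log2 difference of 1 is 2-fold. The difference of iTreg cells at 3 h minus naive T cells is called the change. With 1 array per group there is no spread between replicates and no difference was tested. The only error available is that of probes printed on at least 5 spots, whose spread within an array corresponds to an SD of 0.18 for the log2 difference of a probe, and this covers the array alone and not cells or mice. The 4 arrays were on 1 slide, between 65.0% and 67.7% of the probes were well above local background on each, and no spot was saturated. Nr4a1 and Nr4a2, read as a check of the labels, went against them, with log2 signals of Nr4a1 of 7.04 on the WT-labelled array and 8.38 on the Nr4a-TKO-labelled one in naive T cells and 11.33 and 11.81 at 3 h, and log2 differences of 1.37 and 1.38 at 3 h for the probes of Nr4a2. Of the 3 probes of Nr4a3, 2 were lower on the Nr4a-TKO-labelled array at 3 h, by log2 differences of -1.85 and -1.46, and 1 differed by 0.19. Which parts of the transcripts the alleles lack was not analysed here, and every direction between genotypes rests on the labels. The 9 detected markers of naive CD4+ T cells, Cd4, Cd3d, Cd3e and Cd3g among them, were well above background on all 4 arrays.

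The probe sequences that the results on Id2, Runx2 and Tcf3 turn on are shown because probes of 1 gene gave different values. Coordinates are on mm9 and all 4 probes lie on the minus strand. The capitals in the 5′ probe of Runx2 mark an ATG, known as the start codon of the isoform made from the distal promoter. The first probe of Id2 was designed on a cDNA clone and lists no RefSeq transcript.
Id2 clone probe, chr12:25780080-25780139: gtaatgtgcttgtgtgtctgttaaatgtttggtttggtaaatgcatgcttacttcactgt
Runx2 5′ probe, chr17:44951128-44951187: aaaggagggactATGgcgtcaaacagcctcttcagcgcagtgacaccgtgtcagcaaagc
Runx2 middle probe, chr17:44744925-44744984: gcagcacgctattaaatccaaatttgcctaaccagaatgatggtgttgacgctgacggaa
Tcf3 5′ probe, chr10:79875963-79876022: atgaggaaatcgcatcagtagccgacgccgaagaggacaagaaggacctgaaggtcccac

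A stretch shared by promoters of the 3 Runx genes is shown because the letters that Runx factors bind occur in it more than once. In the RefSeq promoters of GRCm38.p6, each 250 bases before to 50 after a start site, the 8 members other than Tcf4 had 12 promoters. One promoter each of Runx1, Runx2 and Runx3 held the same 18 bases, in capitals below, which are in 4 of 32851 promoters, the other being that of the predicted gene Gm16225. They begin at base 27 and base 22 of the transcript in Runx1 and Runx2 and 136 bases before the start site in Runx3. They hold ACCACA, the reverse complement of TGTGGT, at more than 1 position. TGTGGT or TGCGGT, searched on both strands, was in 22.4% of all these promoters.
Runx1 promoter, chr16:92826025-92826054, minus strand: cataaaCAACCACAGAACCACAAGttgggt
Runx2 promoter, chr17:44814583-44814612, minus strand: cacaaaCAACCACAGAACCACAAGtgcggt
Runx3 promoter, chr4:135120503-135120532, plus strand: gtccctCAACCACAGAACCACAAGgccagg
The E box letters, which are CAGCTG, and in the variants searched CACCTG, or on the other strand CAGGTG, were in 32.9% of all promoters, and among the members in promoters of Id2, Runx1, Runx3 and Tcf12. AAAGGTCA, to which Nr4a factors bind as monomers, was in 1.5% of all promoters and among the members in 1 promoter of Tcf12, 173 bases before the start site on the other strand. No binding was measured here, and a match of letters is a description only.

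All 9 genes were detected, and for each the brightest probe was well above background on all 4 arrays. Of the 26 probes, 20 were well above background on all 4 arrays, 1 on 3 arrays, 2 on 1 array and 3 on none. Of the 20, 9 ranged over less than 0.36 across the arrays, which is double the SD of a difference. For these counts the share over all probes was not computed, so they do not set the members apart from other genes. By its brightest probe, Runx2 was the one member more than 2-fold higher in iTreg cells at 3 h than in naive T cells on the WT-labelled arrays, and no member was more than 2-fold lower, where 8.56% of the 19565 genes tested were higher and 9.01% lower. On the Nr4a-TKO-labelled arrays, Runx2 was more than 2-fold higher and Id2 more than 2-fold lower, where 7.99% of 19956 genes were higher and 8.44% lower. Between the genotypes, Id2 was more than 2-fold higher on the Nr4a-TKO-labelled array in naive T cells, where 1.91% of 19486 genes were higher and 1.64% lower, and no member passed 2-fold at 3 h, where 1.77% of 19757 genes were higher and 1.93% lower. The median log2 differences of the 9 members were -0.26 and -0.08 for the changes on the WT-labelled and Nr4a-TKO-labelled arrays, beside -0.06 and -0.02 over all genes, and -0.01 and 0.09 between the genotypes in naive T cells and at 3 h, beside -0.02 and 0.00. Counted over probes, 1 of 22 was more than 2-fold higher and 1 lower in the change on the WT-labelled arrays, where 9.25% and 8.49% of all probes were, and 2 of 22 higher and 2 lower on the Nr4a-TKO-labelled ones, where 8.22% and 7.95% were. Between the genotypes, 2 of 22 probes were more than 2-fold higher on the Nr4a-TKO-labelled array in naive T cells, where 1.83% of all probes were higher and 1.68% lower, and 1 of 21 at 3 h, where 1.64% were higher and 1.90% lower, and all of these were probes of Id2. These comparisons share arrays with each other, so their values are not independent.

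**Figure D1:**
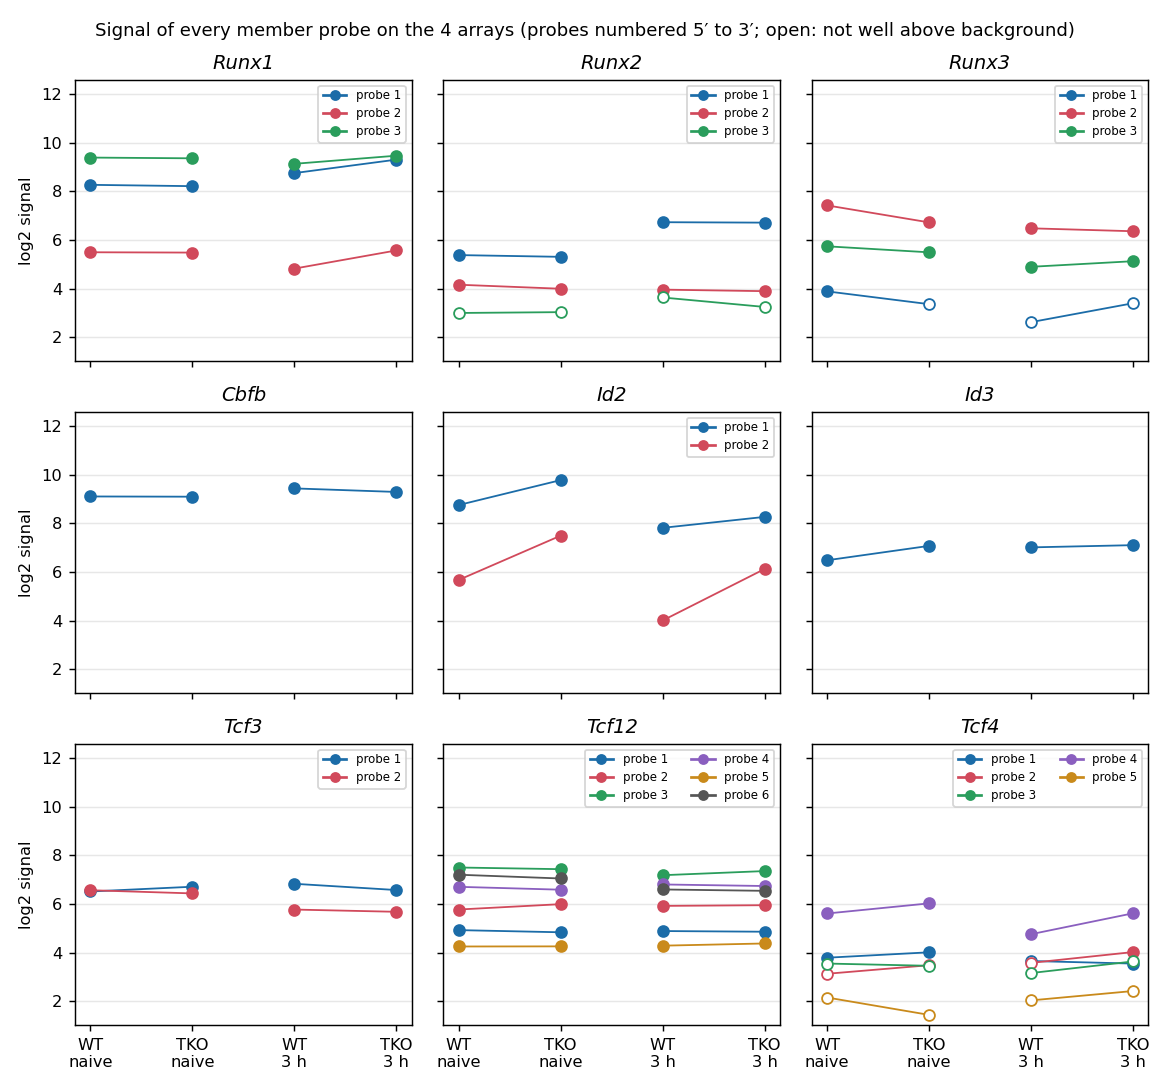
Log2 signal of each of the 26 probes on the 4 arrays, with 1 panel per gene, probes numbered from 5′ to 3′, lines joining the genotypes within a stage and open circles for probes not well above background. Both Id2 probes lie higher on the Nr4a-TKO-labelled arrays at both stages, the 5′ probe of Runx2 lies higher at 3 h in both genotypes, and Cbfb stays between 9.10 and 9.44.

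Runx1, the Runx factor of haematopoietic stem cells and of early and naive T cells, was measured by 3 probes on chromosome 16 that lie 94.7 kb apart from first to last. Its brightest probe, at the 3′ end (chr16:92602576-92602635), had log2 signals of 9.39 in WT naive T cells, 9.36 in Nr4a-TKO naive T cells, 9.14 in WT iTreg cells and 9.47 in Nr4a-TKO iTreg cells. The 5′ probe (chr16:92697238-92697297), which lists 2 of the 4 RefSeq transcripts that the other probes list, had 8.27 and 8.22 in naive T cells of WT and Nr4a-TKO and 8.75 and 9.31 in iTreg cells. The middle probe (chr16:92605785-92605844) had 5.50 and 5.48 in naive T cells and 4.82 and 5.57 in iTreg cells. All 3 probes differed little between the genotypes in naive T cells, with log2 differences between -0.06 and -0.01, and all 3 were higher on the Nr4a-TKO-labelled array at 3 h, by 0.55 at the 5′ probe, 0.75 at the middle probe and 0.33 at the 3′ probe. At the middle probe this was between 0.32 and 0.87 over the settings tried. The changes from naive T to iTreg cells on the WT-labelled arrays went in different directions along the gene, with 0.48, -0.67 and -0.26 from 5′ to 3′. On the Nr4a-TKO-labelled arrays they were 1.09, 0.09 and 0.11, so that the 5′ probe was 2.13-fold higher at 3 h while the others stayed within the SD of repeated spots. That of the 3′ probe did not with 75th percentile scaling, at 0.32, or with the deposited values, at 0.33. The signed change on the Nr4a-TKO-labelled arrays minus that on the WT-labelled ones was above 0 at every Runx1 probe, at 0.61, 0.76 and 0.36. At the middle and 3′ probes the change was smaller in size on the Nr4a-TKO-labelled arrays.

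Runx2, known as the master factor of bone formation and also expressed in lymphocytes, gave the largest change to 3 h among the brightest probes on the WT-labelled arrays. Its 5′ probe, the one with the ATG shown above, had log2 signals of 5.38 and 5.31 in WT and Nr4a-TKO naive T cells and 6.73 and 6.72 in WT and Nr4a-TKO iTreg cells. It was 2.56-fold higher at 3 h on the WT-labelled arrays and 2.65-fold higher on the Nr4a-TKO-labelled ones, and the genotypes differed by -0.07 in naive T cells and -0.02 at 3 h. The middle probe did not share this change, with 4.16 and 3.99 in naive T cells and 3.96 and 3.89 in iTreg cells. It lies not far above the lowest signals counted as well above background, which were between 3.07 and 3.45. The 3′ probe (chr17:44633034-44633093), which lists a non-coding transcript and also predicted mRNAs, was not well above background on any array.

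Runx3, the Runx factor of CD8 and cytotoxic lineages, was lower in iTreg cells at 3 h than in naive T cells at every probe for which this could be computed. The brightest probe (chr4:134731959-134732018) had log2 signals of 7.43 in WT naive T cells, 6.73 in Nr4a-TKO naive T cells, 6.48 in WT iTreg cells and 6.36 in Nr4a-TKO iTreg cells. The 3′ probe (chr4:134732807-134732866) had 5.74, 5.49, 4.90 and 5.13 in the same order. The log2 changes on the WT-labelled arrays were -0.94 and -0.84 at these probes, short of 2-fold, and on the Nr4a-TKO-labelled arrays they were -0.36 and -0.37. The WT change of the 3′ probe was past 2-fold after scaling to the 75th percentile, at -1.10, and with the deposited values, at -1.08, and it was -0.38 with a normexp offset of 50. The brightest probe was lower on the Nr4a-TKO-labelled array in naive T cells, by a log2 difference of -0.70, while the genotypes differed by -0.12 at 3 h. The 5′ probe (chr4:134711463-134711522) was well above background in WT naive T cells alone. The markers of CD8 T cells, Cd8a and Cd8b1, were well above background on all arrays. The log2 of their summed signal was 7.15 and 6.99 in WT and Nr4a-TKO naive T cells and 6.58 and 6.22 in iTreg cells. Cd8b1, between 5.94 and 6.93, carries most of it. Cd8a, between 3.71 and 4.30, lies not far above the lowest signals counted as well above background. Its change was 0.00 on the WT-labelled arrays and -0.48 on the Nr4a-TKO-labelled ones. The part of these markers in the Runx3 values was not tested.

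Cbfb, the partner that all 3 Runx factors share, was measured by 1 probe on chromosome 8 (chr8:107741792-107741851, plus strand). Its log2 signals were 9.11 in WT naive T cells, 9.10 in Nr4a-TKO naive T cells, 9.44 in WT iTreg cells and 9.30 in Nr4a-TKO iTreg cells. The changes to 3 h were 0.33 and 0.20 on the WT-labelled and Nr4a-TKO-labelled arrays, and the genotypes differed by -0.01 in naive T cells and -0.15 at 3 h, within the SD of repeated spots.

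**Figure D2:**
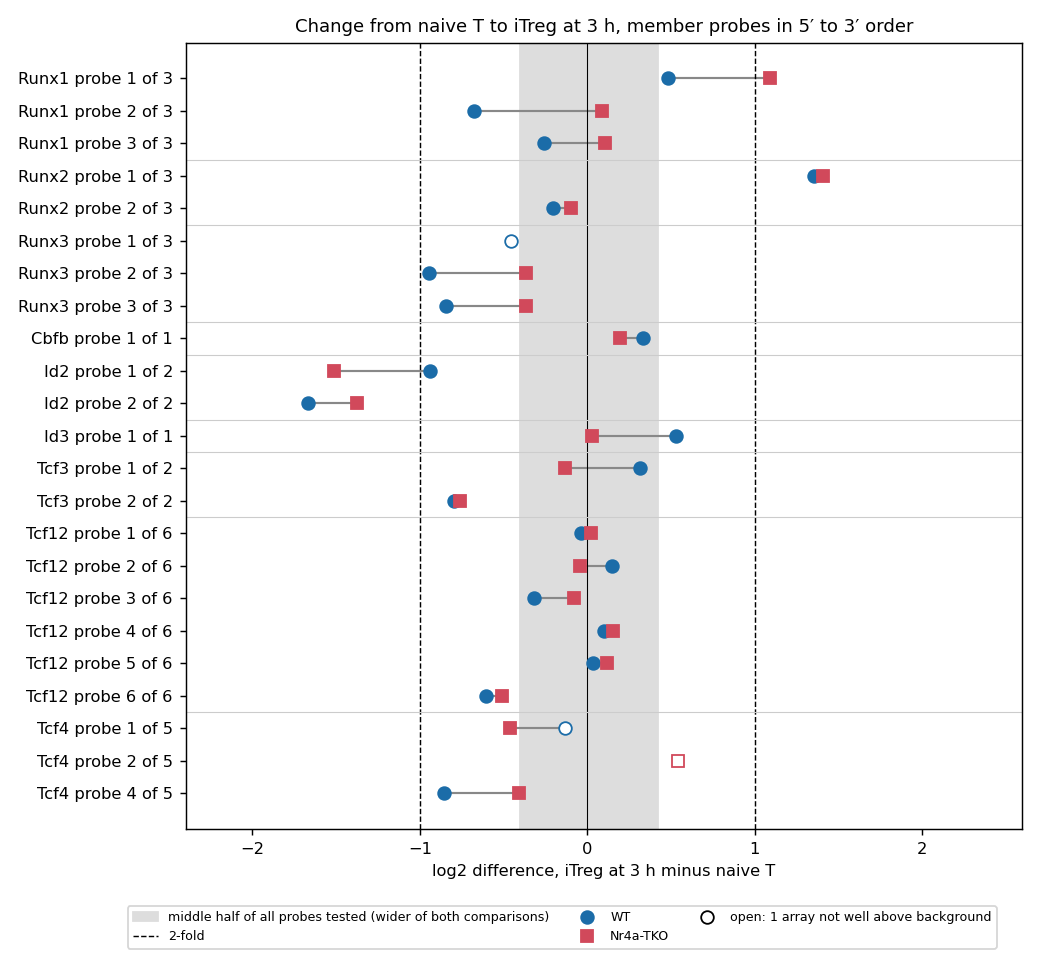
Log2 difference between iTreg cells at 3 h and naive T cells for every member probe with a value, ordered by gene and from 5′ to 3′, for the WT-labelled arrays (circles) and Nr4a-TKO (squares). The grey band is the range from the 25th to the 75th percentile of all probes tested, dashed lines mark 2-fold and open symbols are bounds. The 5′ probe of Runx2 and both Id2 probes lie farthest from 0, and probes of Runx1, Runx2 and Tcf3 lie apart from each other within the gene.

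Probes of 1 gene differed in their change by more than 1 log2 unit for Runx1, Runx2 and Tcf3 on the WT-labelled arrays, with ranges over the probes of 1.16, 1.56 and 1.11. Over the 6450 genes with at least a pair of probes well above background on all arrays, the median range was 0.43 and 15.5% of the genes had a range above 1. For the other members with such probes, Runx3, Id2 and Tcf12, the ranges were 0.10, 0.73 and 0.76. Genes with different numbers of probes are pooled here, and a range can only grow with more probes. On the Nr4a-TKO-labelled arrays, the ranges were 1.00 for Runx1, 1.51 for Runx2 and 0.62 for Tcf3. For Runx3, Id2 and Tcf12 they were 0.00, 0.14 and 0.66. Over all those genes the median was 0.41, and 13.8% had a range above 1.

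Id2, the inhibitor of E proteins, was lower in iTreg cells at 3 h than in naive T cells in both genotypes and higher on the Nr4a-TKO-labelled array at both stages, at both of its probes. The probe of the RefSeq transcript (chr12:25778904-25778963) had log2 signals of 5.67 in WT naive T cells, 7.50 in Nr4a-TKO naive T cells, 4.003 in WT iTreg cells and 6.12 in Nr4a-TKO iTreg cells. Its signal in WT iTreg cells lies not far above 3.43, the lowest counted as well above background on that array. The clone probe, the brighter one, had 8.76, 9.78, 7.82 and 8.27 in the same order. Both probes placed Nr4a-TKO naive T cells highest and WT iTreg cells lowest, and they differed in the order of the remaining groups. The RefSeq probe was 3.54-fold higher on the Nr4a-TKO-labelled array in naive T cells and 4.35-fold higher there at 3 h, and the clone probe 2.04-fold and 1.37-fold higher. From naive T to iTreg cells the RefSeq probe was 3.18-fold lower on the WT-labelled arrays and 2.59-fold lower on the Nr4a-TKO-labelled ones, and the clone probe differed by -0.94 and -1.52 on the log2 scale. The genotype difference of the change was 0.30 at the RefSeq probe and -0.58 at the clone probe. At the RefSeq probe its direction turned with the background correction, since the changes on the WT-labelled and Nr4a-TKO-labelled arrays were -0.61 and -0.95 with a normexp offset of 50 and -0.93 and -1.16 without background correction. With the offset of 50 the RefSeq probe differed between the genotypes at 3 h by 0.86 in place of 2.12. Over all settings tried, its genotype difference was between 1.19 and 1.89 in naive T cells and between 0.86 and 2.56 at 3 h.

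Id3, the other Id protein of naive T cells, was measured by 1 probe (chr4:135700075-135700249, plus strand). Its log2 signals were 6.48 in WT naive T cells, 7.08 in Nr4a-TKO naive T cells, 7.01 in WT iTreg cells and 7.11 in Nr4a-TKO iTreg cells. WT naive T cells were the lowest group, and the remaining 3 differed from each other by less than the SD of repeated spots. Id3 was 1.51-fold higher on the Nr4a-TKO-labelled array in naive T cells and differed by 0.09 at 3 h, and its change was 0.53 on the WT-labelled arrays and 0.03 on the Nr4a-TKO-labelled ones.

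Cells other than naive CD4+ T cells also carry Id2, and markers of such cells were read on the same arrays. In bulk samples, fewer cells of a type and less RNA per cell cannot be told apart. Of 10 markers of NK and innate lymphoid cells, 5 were well above background on all arrays and Ncr1, a defining one, on none. The log2 of the summed signal of those well above background, 7, 6, 8 and 6 genes in turn, was 9.90 in WT naive T cells, 10.23 in Nr4a-TKO naive T cells, 10.29 in WT iTreg cells and 11.29 in Nr4a-TKO iTreg cells. These sums run over different genes and are carried by Il2rb, with a log2 signal between 9.38 and 10.64, and at 3 h also by Rora. Eomes, by -1.36, and Klrd1, by -1.25 as a bound, were more than 2-fold lower on the Nr4a-TKO-labelled array in naive T cells. The median difference of the list between the genotypes was -0.11 in naive T cells and -0.45 at 3 h, and Rora, with 1.99, was the one more than 2-fold higher on the Nr4a-TKO-labelled array at 3 h. All 11 markers of memory T cells were well above background on every array, with summed levels of 12.65, 13.06, 11.47 and 12.34 in the same order. Ahnak among them was higher on the Nr4a-TKO-labelled array by 1.90 in naive T cells and 2.28 at 3 h. S100a4 was lower there by -2.16 in naive T cells, and the medians over the list were -0.01 and 0.58. At 3 h, 3 of 11 were more than 2-fold higher there and 0 lower, beside 1.77% and 1.93% of all genes. Besides Ahnak these were Cd44, with 1.55, and Cxcr3, with 1.30, which differed by 0.22 and -0.59 in naive T cells. The part of these cells in the Id2 values was not tested.

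Tcf3 was measured by a pair of probes on chromosome 10 with different patterns. The 5′ probe shown above had log2 signals of 6.51 in WT naive T cells, 6.71 in Nr4a-TKO naive T cells, 6.83 in WT iTreg cells and 6.57 in Nr4a-TKO iTreg cells, a range of 0.32. The 3′ probe (chr10:79872639-79872698) had 6.57 and 6.44 in naive T cells and 5.77 and 5.68 in iTreg cells. The 3′ probe was lower at 3 h by similar amounts in both genotypes, -0.80 and -0.76, while the change of the 5′ probe was 0.32 on the WT-labelled arrays and -0.14 on the Nr4a-TKO-labelled ones.

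Tcf12, the E protein most used together with that of Tcf3 in thymocytes, was measured by 6 probes on chromosome 9, all well above background on all arrays, of which 5 ranged over no more than 0.32 across the groups. The brightest probe (chr9:71791228-71791287) had log2 signals of 7.50 in WT naive T cells, 7.43 in Nr4a-TKO naive T cells, 7.19 in WT iTreg cells and 7.36 in Nr4a-TKO iTreg cells. The largest genotype difference of a Tcf12 probe at either stage was 0.22. The 3′-most probe (chr9:71690640-71690699) was the one with the larger changes to 3 h, -0.61 and -0.51, from 7.21 and 7.05 in naive T cells to 6.60 and 6.54 in iTreg cells.

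Tcf4, the E protein of plasmacytoid dendritic cells and B cells, was measured by 5 probes on chromosome 18, of which 1 was well above background on all 4 arrays. This probe had log2 signals of 5.61 in WT naive T cells, 6.03 in Nr4a-TKO naive T cells, 4.76 in WT iTreg cells and 5.62 in Nr4a-TKO iTreg cells. It was higher on the Nr4a-TKO-labelled array by 0.42 in naive T cells and by 0.86, which is 1.82-fold, at 3 h, and it was lower at 3 h by log2 changes of -0.85 on the WT-labelled arrays and -0.41 on the Nr4a-TKO-labelled ones. Scaling to the 75th percentile or the deposited values placed it past 2-fold in WT iTreg against WT naive T cells, with -1.15 and -1.13, and between the genotypes at 3 h, with 1.01 for both. The same differences were smaller with a normexp offset of 50, at -0.36 and 0.36, and without background correction, at -0.56 and 0.56. Of the other Tcf4 probes, 1 was well above background on 3 arrays. It had 3.79 in WT naive T cells, 4.01 in Nr4a-TKO naive T cells and 3.55 in Nr4a-TKO iTreg cells. In WT iTreg cells it had 3.65, which was above the 3.55 but not counted as well above background on that array. Another was well above background in Nr4a-TKO iTreg cells alone, and the remaining pair on none.

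All 9 markers of B cells read here, in which Tcf4, Tcf3 and Id3 are also expressed, were well above background on every array, Cd79a, a chain of the B cell receptor, and Pax5, the B lineage factor, included. The log2 of their summed signal was 10.53 in WT naive T cells, 11.09 in Nr4a-TKO naive T cells, 10.20 in WT iTreg cells and 11.05 in Nr4a-TKO iTreg cells. Their median genotype difference was 0.70 in naive T cells and 0.77 at 3 h, in the same direction as that of Tcf4. Single markers varied widely around this median. H2-Aa was higher on the Nr4a-TKO-labelled array by 1.61 and 1.34. Pax5 differed by only 0.08 and 0.11, and Ms4a1 by 0.10 and 0.07. Cd79b was lower there by -0.56 in naive T cells and higher by 0.77 at 3 h. The part of these markers in the Tcf4 and Id3 values was not tested. Of 10 markers of plasmacytoid dendritic cells, 9 were well above background on all arrays. The summed levels of the detected ones were 12.69, 12.61, 12.33 and 12.33, and the median genotype differences 0.11 and 0.03. Siglech, with log2 signals between 11.66 and 12.07, carries most of these sums and differed by -0.20 and 0.00. Spib differed by 0.69 and 1.31 and was the one marker past 2-fold at 3 h, where 1.77% of all genes were higher. What the signal of Siglech comes from was not tested.

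**Figure D3:**
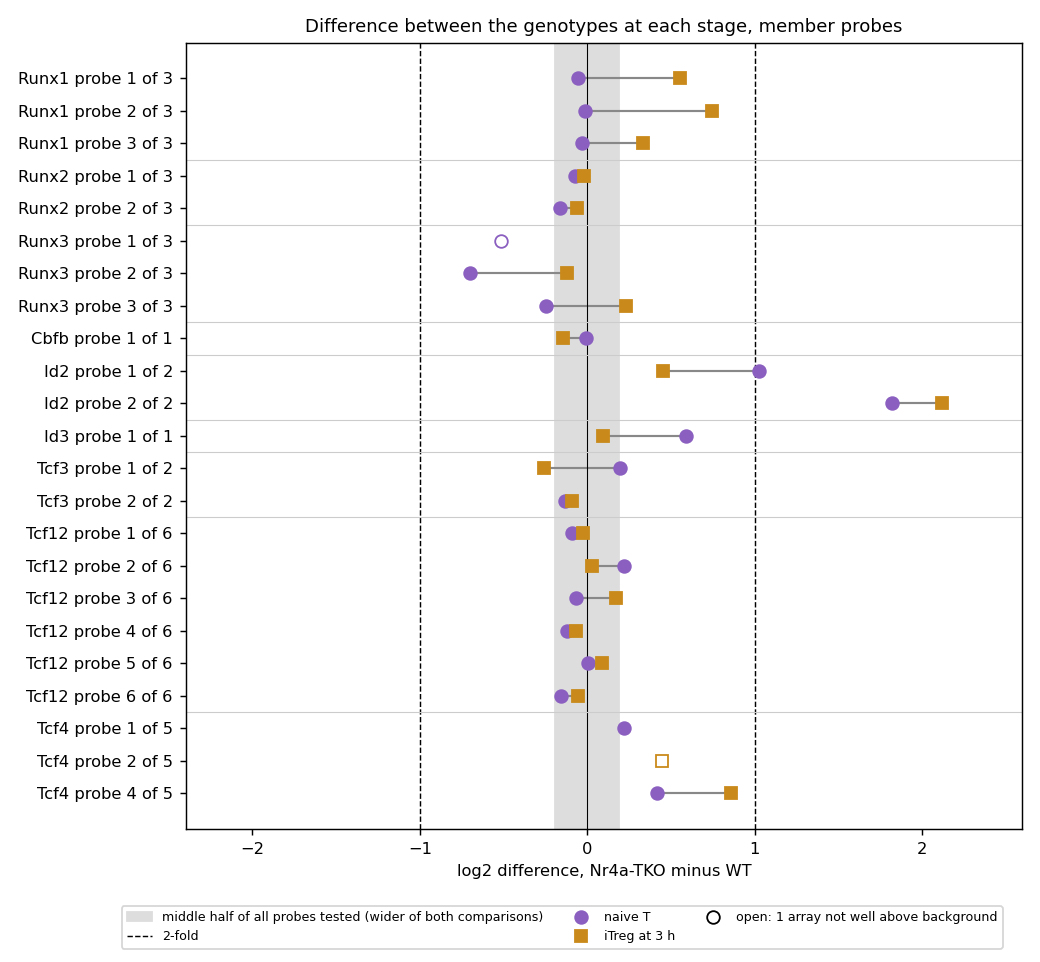
Log2 difference between the Nr4a-TKO-labelled arrays and WT for every member probe with a value, in naive T cells (circles) and in iTreg cells at 3 h (squares), with the range from the 25th to the 75th percentile of all probes tested in grey, dashed lines at 2-fold and open symbols for bounds. Both Id2 probes lie to the right at both stages, the 3 Runx1 probes lie near 0 in naive T cells and to the right at 3 h, and the probes of Runx2 and Tcf12 stay close to 0.

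The difference between the changes of both genotypes used all 4 arrays. It is signed, as the change on the Nr4a-TKO-labelled arrays minus that on the WT-labelled ones, so a deeper fall there counts as negative. By the brightest probe, no member differed in its change by more than 2-fold. Of the 18711 genes tested, 2.38% did so in the positive direction and 2.41% in the negative one. None of the 21 member probes did, where 2.40% and 2.47% of all probes did. The values farthest above 0 among the brightest probes were 0.58 for Runx3 and 0.44 for Tcf4, and those farthest below were -0.58 for Id2, -0.50 for Id3 and -0.45 for Tcf3. The median over the members was 0.05, beside 0.01 over all genes.

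The cofactors through which Runx and E proteins act were read as a list of 19 genes, among them the Tle corepressors, the coactivators Ep300 and Crebbp, and Ldb1 and the Lmo proteins that bridge helix-loop-helix factors. On the WT-labelled arrays, 1 of 17 tested was more than 2-fold higher at 3 h and 3 lower, with a median of -0.10, where 8.56% of all genes were higher and 9.01% lower. On the Nr4a-TKO-labelled arrays, 1 of 18 was higher and 4 lower, with a median of -0.32, where 7.99% of all genes were higher and 8.44% lower. Tle5, a short Tle protein without the repeat domain, was lower by log2 changes of -2.07 and -1.98 on the WT-labelled and Nr4a-TKO-labelled arrays, and Ldb1, the bridging adaptor, by -1.29 and -1.08. Tle1, a full-length corepressor, was higher by 1.11 and 1.26. Between the genotypes, Lmo2 was higher on the Nr4a-TKO-labelled array by 1.18 and Hipk2, a kinase of Runx proteins, lower by -1.20 in naive T cells, and none of 17 passed 2-fold at 3 h. Of 15 other helix-loop-helix genes, 8 were well above background on no array. Bhlhe40, a repressor known to follow T cell activation, had 6.49 and 7.33 in WT and Nr4a-TKO iTreg cells. It was at least 8.28-fold higher at 3 h on the WT-labelled arrays and higher by a log2 change of 2.42 on the Nr4a-TKO-labelled ones. In naive T cells it was at least 2.75-fold higher on the Nr4a-TKO-labelled array, where WT was not well above background. It was the 1 of 7 tested past 2-fold there, beside 1.91% of all genes higher and 1.64% lower, and 0 of 6 passed at 3 h. Id1, a further Id gene, was higher by 0.86 and 1.18.

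Genes known as targets of Runx factors in T cells were read as a list of 18, which shares Il7r, Bcl11b and Cd4 with that of E proteins. On the WT-labelled arrays, 1 of 15 tested was more than 2-fold higher at 3 h and 4 lower, with a median of -0.62, beside 8.56% and 9.01% of all genes. On the Nr4a-TKO-labelled ones, 2 of 15 were higher and 2 lower, with a median of 0.07, beside 7.99% and 8.44%. Il2, the cytokine of activated T cells, had log2 signals of 7.09 in WT and 8.28 in Nr4a-TKO iTreg cells, and Il7r, the IL-7 receptor of resting T cells, was lower at 3 h by -3.01 and -2.76. Between the genotypes in naive T cells, none of 14 was more than 2-fold higher on the Nr4a-TKO-labelled array and 2 were lower, Eomes, a factor of cytotoxic cells, by -1.36 and Foxp3, beside 1.91% and 1.64% of all genes. At 3 h, 3 of 16 were higher there and 1 lower, beside 1.77% and 1.93%. Zbtb7b, the CD4 lineage factor, had 4.48 on the WT-labelled array and 5.99 on the Nr4a-TKO-labelled one, a difference of 1.51, and Il2 differed by 1.19. Foxp3 had 7.52 and 6.17, a difference of -1.35, and in naive T cells 7.41 and 6.10, a difference of -1.31. The 8 markers of Treg cells, Foxp3 included, were all well above background on every array. Their median genotype difference was -0.16 in naive T cells and 0.11 at 3 h, with single markers far off in both directions. In naive T cells, 1 was more than 2-fold higher on the Nr4a-TKO-labelled array and 2 lower, and at 3 h 2 were higher and 1 lower. The shares over all genes are those just given. Gpr83 differed by 1.56 and 2.27, Nrp1 by 0.97 and 1.05, and Ikzf2 by -1.37 and 0.16.

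Genes known as targets of E proteins were a list of 14. On the WT-labelled arrays, 2 of 12 tested were more than 2-fold higher at 3 h and 7 lower, with a median of -1.05, beside 8.56% and 9.01% of all genes. On the Nr4a-TKO-labelled ones 3 of 13 were higher and 5 lower, with a median of -0.71, beside 7.99% and 8.44%. Gfi1, a transcriptional repressor, was higher by log2 changes of 3.57 and 2.76, and Socs3, an inhibitor of cytokine signals, was lower by -4.22 and -2.93. Cdkn1a, an inhibitor of the cell cycle, was well above background at 3 h alone, with 5.61 in WT and 6.45 in Nr4a-TKO iTreg cells. Between the genotypes, 1 of 12 passed 2-fold in naive T cells, Rag2, a recombinase gene, which was well above background on the Nr4a-TKO-labelled arrays alone, with 5.31 in naive T cells and 4.21 at 3 h. At 3 h none of 13 was measured past 2-fold, but the difference of Rag2 is a bound there, at least 1.71-fold, since it was not well above background on the WT-labelled array.

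The genes with the pattern most like that of a member were found by the Euclidean distance between centred log2 signals over the 4 arrays, among 16774 other genes, for the members whose brightest probe ranged over at least 1 log2 unit. For Runx2 these were Ddx39a at a distance of 0.0286, Eif3a at 0.0345 and Anp32b at 0.0541. For Runx3 they were Gm13544 at 0.0726, Slc66a1 at 0.0868 and Gm9732 at 0.0968. For Id2 the nearest genes lay farther off, with Angptl1 at 0.161, Fam234b at 0.206 and LOC105245058 at 0.235. For Tcf4 they were Atad2 at 0.0876, Nlrp1a at 0.132 and Lsr at 0.159. With 4 arrays, such a likeness is a description.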

How the data were processed

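Transcripts of 4 samples, 1 per group, were measured on single-colour Agilent arrays. Per the labels and file headers, the authors scanned them with Agilent Feature Extraction 11.5.1.1 and deposited, for each spot, the mean intensity, the median local background intensity, a processed intensity and flags, with probe coordinates on mm9. The deposited value table is on the log2 scale. The methods name RMA, while the table was found to equal log2 of the processed intensity minus a constant per array that brings the 75th percentile to about 0 (SD of the offset 0.0029).

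Mean intensities were corrected with normexp (offset 0, local background), quantile-normalized across the 4 arrays, put on the log2 scale and averaged over the spots of a probe, with limma 3.58.1 in R 4.3.3, after reading the files with the package data.table, version 1.17.8. Control and outlier spots were left out, which were between 115 and 160 flagged spots per array of 62976. Counts and comparisons were made in pandas 2.3.3 and numpy 2.4.6 under Python 3.11.15, and figures in matplotlib 3.10.9. The brightest probe, by its mean over the arrays, stood for a gene. Differences were formed for probes well above background on 1 or both of the arrays compared, and a dim side was raised to the lowest signal well above background there (3.45 and 3.37 in naive T cells of WT and Nr4a-TKO, 3.43 and 3.07 in iTreg cells), which makes the difference a bound. The threshold was 2-fold. No p-value is given, since each group has 1 array, and their number limits the precision. The code that counts values past 2-fold was tested on simulated data, which does not bear on the differences between these arrays.

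The members and the lists were chosen with earlier results of these data known. Every member probe is given. From the lists, at most the 2 largest changes in each direction are named, and other genes there, such as Id1, Foxp3 and the markers, were named after their values were seen. The alternatives were 75th percentile scaling of the processed intensity, the deposited values, no background correction, normexp with an offset of 50, a stricter filter on dim probes, none, the mean of a gene's probes, and thresholds of 1.5-fold and 3-fold. Since the deposited values differ from the processed intensity by little more than that scaling, these alternatives are nearly the same and not separate checks, wherever both are given. Promoters were those of RefSeq (GRCm38.p6). Arrays at 24 h and sequencing data were not used here. One gene of the marker lists is not reported here and was left out of them.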

Additional observations from a re-analysis of the deposited data

Results flagged for a closer look

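The genotype difference had opposite directions in naive T cells and at 3 h and was larger than the SD of 0.18 of repeated spots at each stage at 2 member probes, and in both the difference between the stages was not tested, with 1 array per group. The 3′ probe of Runx3 differed between the Nr4a-TKO-labelled and WT-labelled arrays by -0.25 in naive T cells and 0.23 at 3 h on the log2 scale. The brightest probe of Runx3 differed by -0.70 in naive T cells and by -0.12 at 3 h, the latter smaller than that SD. The 5′ probe of Tcf3 differed by 0.20 in naive T cells and by -0.26 at 3 h. The 3′ probe of Tcf3 differed by -0.13 and -0.09, both smaller than that SD. At the 3′ probe of Runx3 both values were below that SD with a normexp offset of 50, at -0.12 and 0.09, and so were those of the 5′ probe of Tcf3, at 0.13 and -0.17. The 3 probes of Runx1 and the brightest probe of Tcf12 also went from below to above 0, but with naive T cell differences smaller than that SD.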

How the results depend on the processing

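No paired analysis was possible because each group has 1 array, and for the same reason no array could be left out and slide or scan could not be used as a block. The count of member genes past 2-fold in WT iTreg against WT naive T cells was 1, and became 2 with 75th percentile scaling, 2 with the deposited values, 0 with a normexp offset of 50, 4 at 1.5-fold and 0 at 3-fold. In Nr4a-TKO iTreg against Nr4a-TKO naive T cells it was 2, and became 1 with the offset of 50, 1 with the mean of a gene's probes and 0 at 3-fold. Between the genotypes in naive T cells it was 1, and became 0 with the offset of 50, 0 without background correction, 3 at 1.5-fold and 0 at 3-fold. At 3 h it was 0, and became 1 with 75th percentile scaling, 1 with the deposited values, 1 with the mean of a gene's probes and 1 at 1.5-fold. The count for the difference of the changes, whose alternatives were chosen after the data were seen, was 0 in all of them. No called value changed sign. Of 87 differences of member probes, 24 moved by at least 0.18 with the offset of 50 and 16 without background correction. With 75th percentile scaling 17 moved, and 17 with the deposited values, which are nearly the same setting. Without a filter on dim probes 1 moved, and only bounds could move there. The stricter filter only leaves differences out, so the 82 that remained could not move. The change of the 5′ probe of Runx2 was between 0.77 and 1.44 on the WT-labelled arrays and between 0.79 and 1.49 on the Nr4a-TKO-labelled ones. The order of the 4 arrays was kept after 75th percentile scaling by 16 of the 20 probes well above background on all of them. The cause of these shifts was not tested.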
